A study of Mus musculus with 6 samples.

Results

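The respiratory complex assembly factors examined here are 45 nuclear genes whose products help to build complexes I to V of the mitochondrial inner membrane without staying in the finished enzyme. They were taken by name from the gene column of the expression table, and each of the 45 names matched exactly 1 of its 49315 rows. By complex, 14 of them serve complex I, 4 serve complex II, 6 serve complex III, 18 serve complex IV and 3 serve complex V, the ATP synthase. Their RNA was compared between bone marrow macrophages (BMMs) at day 0 and osteoclasts, the bone-resorbing cells that BMMs form, at day 4. Both groups were wild-type mouse cells, with 3 libraries each. BMMs were grown in αMEM with 10% fetal bovine serum and 10% supernatant of CMG14-12 cells, which supplies M-CSF. For osteoclasts the medium held the same serum, CMG14-12 supernatant diluted 1 part in 50 and 75 ng/mL RANKL. No day 4 culture without RANKL was sequenced among these libraries, so RANKL, the lower M-CSF supply and the days in culture cannot be told apart. The labels name the libraries biological replicates but give no animal, sex or age, and p-values therefore reflect just the spread among these libraries, which may be technical.

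Respiratory complexes are assembled in modules from many subunits, some made inside mitochondria and most imported, and assembly factors hold partly built modules, insert cofactors such as heme, copper, flavin and iron-sulfur clusters, or clear failed parts. Loss of a single factor typically leaves the complex deficient, and many of these genes were first identified through inherited mitochondrial disease. Osteoclasts are rich in mitochondria, and their differentiation is known to be accompanied by mitochondrial biogenesis.

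The libraries matched their labels. Of 10 osteoclast markers, 10 were higher in osteoclasts, with a summed level of 332.6 to 354.2 TPM in BMMs and 38249 to 38837 TPM in osteoclasts, and of 10 macrophage markers 8 were lower and 1 was higher. The unit, TPM, divides reads by gene length and scales every library to the same total, so it keeps no record of depth and no counting interval could be given. Pearson's r of log2 values across genes was 0.995 to 0.996 between BMM libraries and 0.987 to 0.992 between osteoclast libraries. Some markers of other cells moved with the groups. Of 9 neutrophil markers 9 were lower in osteoclasts, with a summed level of 3030 to 3309 TPM in BMMs and 15.0 to 27.0 TPM in osteoclasts. Of 10 stromal and osteoblast markers 5 could be tested and 4 (Col1a1, Col1a2, Col3a1 and Sparc) were higher. The 10 had a sum of 10.8 to 11.7 TPM in BMMs and 166.9 to 208.7 TPM in osteoclasts. Runx2 did not pass the test (log2 fold change 0.20), and Sp7, Bglap, Alpl, Cxcl12 and Lepr averaged under 1 TPM and were not tested. Of these untested markers Cxcl12 was the highest in osteoclasts, at 0.375 TPM on average. Of 6 B cell, 6 T cell and 6 erythroid markers, the summed levels were at most 10.5, 11.2 and 0.358 TPM in any library, and Hba-a2, Hbb-bs and Hbb-bt were at 0 in each library. Of the T cell markers 2 were tested. Trac was higher, with means of 0.281 TPM in BMMs and 5.56 TPM in osteoclasts, and Cd4 was lower, at 8.18 and 4.56 TPM. The part of these cells in the results was not tested. In such bulk RNA, fewer cells of a type and less RNA per cell cannot be told apart.

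Assembly factor RNA was mostly higher in osteoclasts. Of the 45 genes, 44 averaged 1 TPM or more across all 6 libraries and were tested with limma on log2(TPM + 1). Of these, 41 were higher at an adjusted p under 0.05, 1 (Tmem126b) was lower, and 2 (Coa5 and Cox20) did not pass. Among all 12325 genes tested, 45.3% rose and 23.5% fell (68.9% in either direction). The median log2 fold change of the 44 was 0.87, beside 0.19 for all genes tested, and 42 of the 44 lay above that all-gene median. Lyrm7 reached the minimum level only through its osteoclast libraries, and without it 40 of 43 were higher. Sco2 was the member left untested. Scaling decided part of the count. Median-ratio scaling places the typical gene near no change (median 0.0025). With it, 35 of the 44 were higher beside 33.5% of all genes, 1 was lower beside 33.6%, and the median of the 44 was 0.67.

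**Figure D1:**
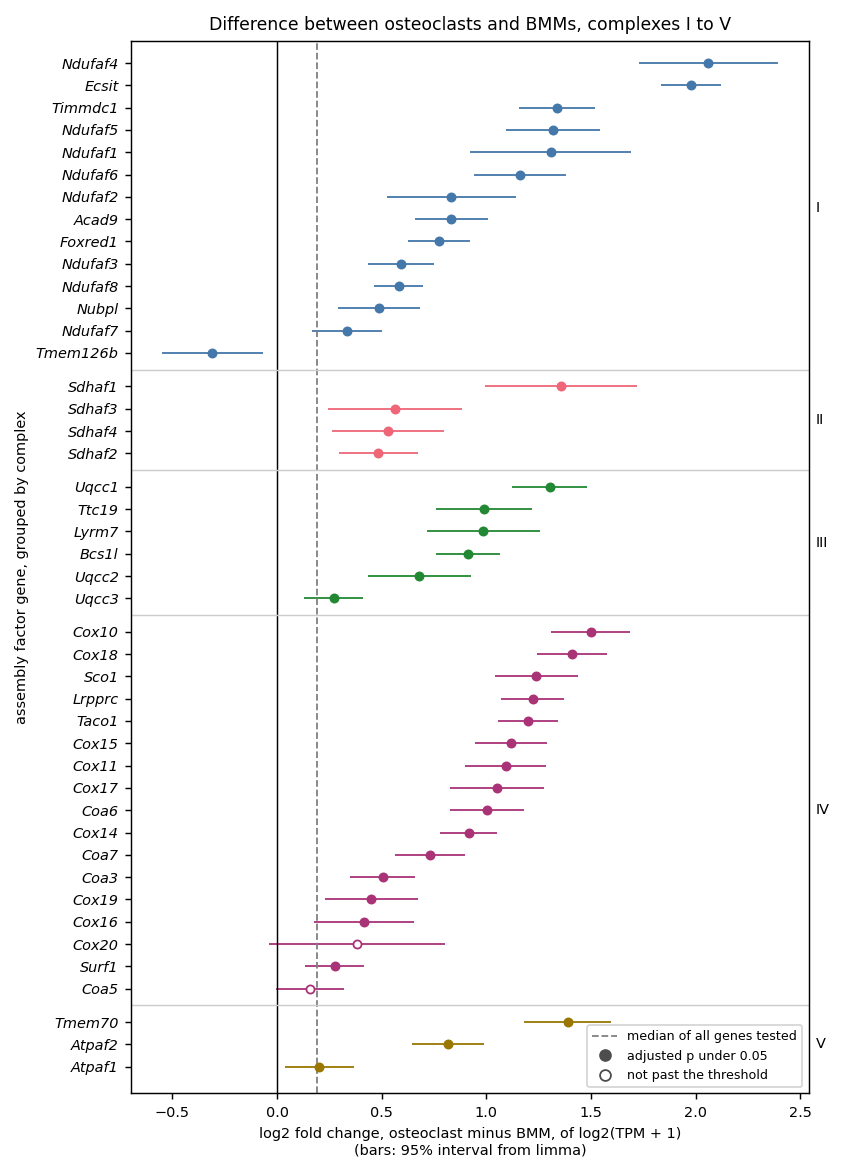
Difference between osteoclasts and BMMs for the 44 assembly factors tested (points, log2 fold change of log2(TPM + 1); bars, 95% interval from limma), grouped by complex, with the all-gene median of 0.19 as a dashed line. Tmem126b is the gene to the left of 0 and Ndufaf4 and Ecsit lie farthest to the right, while Coa5 and Cox20, drawn open, did not pass the test, and Coa5 turned below 0 after scaling to the typical gene.

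The groups did not overlap in 43 of the 44. In 42 of these the 3 osteoclast libraries were all above the 3 BMM libraries, beside 47.4% of all genes tested. Lyrm7, which reached the minimum level only through its osteoclast libraries, is among these 42. Of the 44 tested, 18 were called higher with a log2 fold change of at least 1, beside 13.6% of all genes tested. The group means of the 44 ran from 0.408 to 175.8 TPM in BMMs with a median of 12.3 TPM, and from 1.79 to 332.9 TPM in osteoclasts with a median of 27.8 TPM. Cox14, Coa3, Coa5, Uqcc3 and Uqcc2 were the 5 highest in BMMs. In osteoclasts, Cox14, Coa3, Uqcc3, Coa6 and Uqcc2 led. The gene lengths behind TPM were not given in the sources used here, and levels of different genes depend on them. Cox17, for example, has a short coding sequence but 5773 annotated exonic bases over all its isoforms.

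The DNA before these genes is shown for Ndufaf4 and Ecsit, the members of complex I with the largest rises, for Cox10, a member of complex IV with a large rise, and for Tmem126b, which fell. Each window runs from 250 bases before to 50 bases after the RefSeq start of the gene on GRCm38.p6, 5′ to 3′ on the gene's strand, in lower case. Capitals mark matches on either strand to letters known as binding sequences of factors that control nuclear mitochondrial genes: GCGCA and GCGC with any base between them for NRF1, CCGGAAG for ETS factors such as GABP, and AAGATGGC for YY1. No capitals of different motifs overlap in the windows shown.
Ndufaf4, chr4:24897833-24898132, plus strand: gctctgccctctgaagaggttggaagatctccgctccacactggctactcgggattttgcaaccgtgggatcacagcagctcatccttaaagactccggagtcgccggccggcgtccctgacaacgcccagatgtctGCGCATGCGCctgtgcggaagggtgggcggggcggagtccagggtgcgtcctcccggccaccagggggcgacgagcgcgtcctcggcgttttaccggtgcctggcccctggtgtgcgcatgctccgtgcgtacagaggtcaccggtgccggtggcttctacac
Ecsit, chr9:22085378-22085677, minus strand: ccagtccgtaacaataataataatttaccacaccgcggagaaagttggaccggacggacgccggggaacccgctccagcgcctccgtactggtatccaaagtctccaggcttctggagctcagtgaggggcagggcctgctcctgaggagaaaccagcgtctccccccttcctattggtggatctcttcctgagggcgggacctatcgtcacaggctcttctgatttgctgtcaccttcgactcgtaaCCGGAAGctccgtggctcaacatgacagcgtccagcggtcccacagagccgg
Cox10, chr11:64079423-64079722, minus strand: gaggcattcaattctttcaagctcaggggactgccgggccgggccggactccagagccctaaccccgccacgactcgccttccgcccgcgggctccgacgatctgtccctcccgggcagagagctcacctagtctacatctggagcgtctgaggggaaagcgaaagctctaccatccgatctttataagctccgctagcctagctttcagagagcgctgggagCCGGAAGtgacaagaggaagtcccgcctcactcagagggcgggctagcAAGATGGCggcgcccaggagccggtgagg
Tmem126b, chr7:90475946-90476245, minus strand: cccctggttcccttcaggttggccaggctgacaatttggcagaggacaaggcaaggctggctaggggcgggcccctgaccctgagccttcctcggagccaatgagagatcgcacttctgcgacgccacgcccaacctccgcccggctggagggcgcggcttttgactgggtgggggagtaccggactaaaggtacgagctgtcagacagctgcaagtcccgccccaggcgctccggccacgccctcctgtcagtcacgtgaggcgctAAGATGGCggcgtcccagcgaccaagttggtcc
The Ndufaf4 window holds 1 match to the NRF1 letters, the Ecsit window 1 match to the ETS letters, the Cox10 window 1 match each to the ETS and YY1 letters, and the Tmem126b window 1 match to the YY1 letters. RefSeq windows were found for 39 of the 45 members (41 windows, since Atpaf1 and Cox16 have 2 each). The ETS letters were in 16 of these 41 windows (39.0%), beside 18.4% of 11464 windows of genes tested and 8.86% of all 32851 windows. Matches to the YY1 letters were in 6 windows (14.6%), beside 4.72% and 2.75% of those backgrounds. The NRF1 letters were in 5 windows (12.2%), beside 10.3% and 4.60%. Of the remaining motifs searched, TGACGTCA, bound by CREB, was in 3 windows (7.32%, beside 3.04% and 1.79%) and TCAAGGTCA, bound by estrogen-related receptors, was in 0 (beside 0.279% and 0.423%). A match describes letters and was not tested as a binding site. Of the windows shown, the 3 of genes that rose and that of the gene that fell all carry at least 1. Windows of Uqcc1, Lrpprc, Taco1 and Cox11, which also rose, carry no match to any motif searched.

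Factors of complex I, the NADH dehydrogenase, held the largest log2 fold changes of the whole group with a pseudocount of 1 TPM, and its only fall. Of 14, 13 were higher and 1 was lower, beside 45.3% and 23.5% of all genes tested. Log2 fold changes of the 14 ran from -0.31 to 2.06 with a median of 0.83.
Ndufaf4 (ENSMUSG00000028261, GRCm38 chr4:24898083-24905001, plus strand) encodes a factor that, with Ndufaf3, binds the early module that will reduce ubiquinone. It measured 3.22, 3.84 and 3.98 TPM in BMM replicates 1 to 3 and 19.1, 22.2 and 14.8 TPM in osteoclast replicates 1 to 3. The osteoclast libraries were all far above the BMM libraries and replicate 3 was the lowest of them. The means differed 5.09-fold, and the log2 fold change was 2.06 (standard error, SE, 0.14, adjusted p = 4.7e-06 from limma). Ndufaf3 changed less, with a log2 fold change of 0.59 (SE 0.07).
Ecsit (ENSMUSG00000066839, chr9:22072246-22085438, minus strand) encodes a member of the mitochondrial complex I intermediate assembly complex, which builds part of the membrane arm, and is also known as a signalling adaptor of Toll-like receptors. Its levels were 9.95, 10.0 and 10.5 TPM in BMMs and 43.1, 41.7 and 44.2 TPM in osteoclasts. Replicates lay close together in both groups, which differed 4.22-fold, with a log2 fold change of 1.98 (SE 0.06, adjusted p = 7.4e-08 from limma). Of its 2490 exonic bases, 598 lie over the antisense transcript Gm16845, which measured 4.38 TPM on average in BMMs and 3.47 TPM in osteoclasts.
The partners of Ecsit in that intermediate did not move alike. Timmdc1 and Ndufaf1, both of them membrane arm factors, had log2 fold changes of 1.34 and 1.31. Acad9, a relative of the acyl-CoA dehydrogenases of fatty acid oxidation that also serves in assembly, had one of 0.83. Tmem126b (ENSMUSG00000030614, chr7:90467438-90476001, minus strand) is a membrane protein of the same intermediate. BMM libraries held 16.5, 16.6 and 16.5 TPM of it and osteoclast libraries 13.1, 15.4 and 11.4 TPM. All 3 osteoclast libraries were below all BMM libraries, and osteoclast replicate 2 came closest to them. Its RNA fell by 0.31 on the log2 scale (SE 0.10, adjusted p = 0.028 from limma), and the call was lost when any library other than osteoclast replicate 2 was left out (adjusted p from 0.050 to 0.078) and with no filter on low values (adjusted p = 0.064). After median-ratio scaling the value was -0.51 (adjusted p = 0.0029). Tmem126a, the neighbouring paralog, was chosen after its values were seen. It went the other way, at 16.8, 15.2 and 17.9 TPM in BMMs and 19.9, 24.9 and 19.2 TPM in osteoclasts (log2 fold change 0.34, SE 0.11, adjusted p = 0.025 from limma). How reads that match both paralogs were counted was not given in the sources used here.

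**Figure D2:**
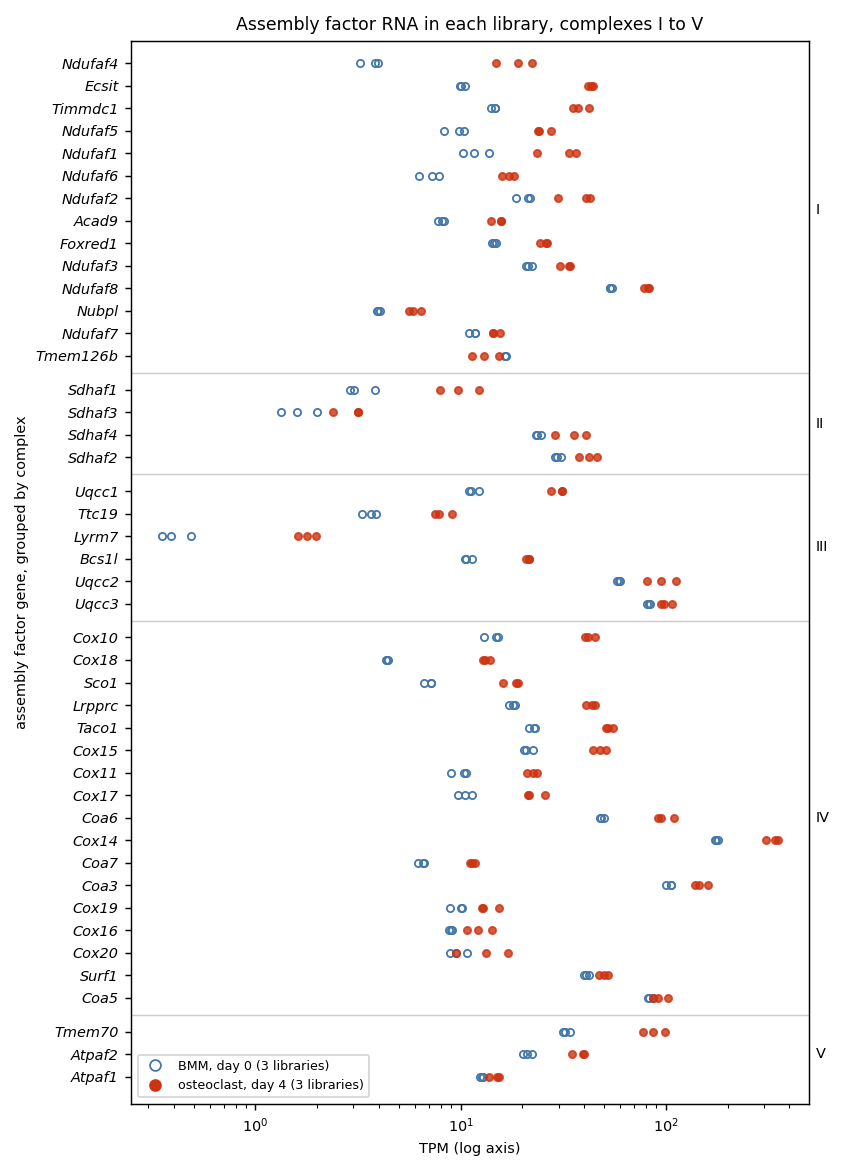
TPM of each of the 44 tested assembly factors in each library on a log axis (open blue, BMM replicates; filled red, osteoclast replicates), grouped by complex and ordered by log2 fold change. Red points lie to the right of blue points except for Tmem126b and, for 1 of 3 libraries, Cox20, and levels run from 0.351 TPM for Lyrm7 to 352 TPM for Cox14.

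The factors that modify or fill the ubiquinone module rose by unequal amounts. Ndufaf5, which hydroxylates an arginine of the subunit Ndufs7, and Ndufaf6, needed for early assembly, had log2 fold changes of 1.32 and 1.16. Ndufaf8, the stabilizing partner of Ndufaf5, had one of 0.58. Ndufaf7 (ENSMUSG00000024082, chr17:78937136-78948052, plus strand) encodes a methyltransferase needed for complex I assembly. It was at 11.0, 11.7 and 11.8 TPM in BMMs and 14.3, 15.6 and 14.3 TPM in osteoclasts, without overlap, a log2 fold change of 0.33 (SE 0.07, adjusted p = 0.0035 from limma). Ndufaf7 no longer passed after median-ratio scaling (log2 fold change 0.14, adjusted p = 0.15). Nubpl, which delivers iron-sulfur clusters, had a log2 fold change of 0.49, and the late factors Ndufaf2 and Foxred1 had values of 0.83 and 0.77.

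Complex II, succinate dehydrogenase, has 4 factors, and 4 were higher, beside 45.3% of all genes tested. Their median log2 fold change was 0.55. Sdhaf1 (ENSMUSG00000074211, chr7:30321406-30323895, minus strand) guides iron-sulfur clusters into the subunit Sdhb. Its BMM libraries were at 3.01, 2.90 and 3.83 TPM and its osteoclast libraries at 9.71, 12.3 and 7.89 TPM, a 3.07-fold difference without overlap (log2 fold change 1.36, SE 0.16, adjusted p = 1.0e-04 from limma). The other factor for Sdhb, Sdhaf3, was among the lowest genes of the group. It measured 1.60, 1.33 and 1.99 TPM in BMMs and 3.16, 3.15 and 2.39 TPM in osteoclasts, for a log2 fold change of 0.56 (SE 0.14). Sdhaf2 (ENSMUSG00000024668, chr19:10500534-10526142, minus strand) attaches flavin to Sdha and rose the least of the 4. Libraries of BMMs held 28.9, 29.4 and 30.9 TPM and those of osteoclasts 42.2, 46.4 and 37.8 TPM. These levels do not overlap, and the log2 fold change was 0.48 (SE 0.08, adjusted p = 9.1e-04 from limma). Sdhaf4, which joins flavinated Sdha to Sdhb, had a log2 fold change of 0.53.

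All 6 factors of complex III, the cytochrome bc1 complex, were higher, beside 45.3% of all genes tested. Their median log2 fold change was 0.95. The 6 include Lyrm7, which reached the minimum level only through its osteoclast libraries. The factors for cytochrome b, which mitochondria encode themselves, did not move alike. Uqcc1 (ENSMUSG00000005882, chr2:155846894-155930310, minus strand) was at 11.0, 11.2 and 12.3 TPM in BMMs and 31.0, 31.0 and 27.6 TPM in osteoclasts. That is a 2.59-fold difference and a log2 fold change of 1.30 (SE 0.08, adjusted p = 1.8e-06 from limma). Its binding partner Uqcc2 had a log2 fold change of 0.68. Uqcc3 (ENSMUSG00000071654, chr19:8880014-8880923, minus strand), which acts after them, was far more abundant and changed little. It measured 84.0, 80.8 and 82.9 TPM in BMMs and 97.7, 107.4 and 94.7 TPM in osteoclasts, a log2 fold change of 0.27 (SE 0.06, adjusted p = 0.0046 from limma). After median-ratio scaling its log2 fold change was 0.06 and did not pass (adjusted p = 0.49).
The 3 factors of the Rieske iron-sulfur protein Uqcrfs1 changed by similar amounts on this scale. Bcs1l, the ATPase that moves the folded protein across the membrane, had a log2 fold change of 0.91, and Ttc19, which clears its fragments, had one of 0.99. Lyrm7, the chaperone that holds the Rieske protein in the matrix, also had 0.99 but was the lowest member tested, at 0.351, 0.388 and 0.485 TPM in BMMs and 1.61, 1.97 and 1.79 TPM in osteoclasts. Its means differed 4.38-fold, which the pseudocount of 1 TPM shrinks. With 0.1 TPM its log2 fold change was 1.90, above the 1.37 of Uqcc1.

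Complex IV, cytochrome c oxidase, has the most factors. Of 18, 17 were tested, 15 were higher and 2 did not pass, beside 45.3% higher among all genes tested. The median log2 fold change of the 17 was 1.00. Heme A is the cofactor particular to this enzyme, and both genes of its synthesis rose. Cox10 (ENSMUSG00000042148, chr11:63962627-64079468, minus strand), the heme O synthase, measured 13.0, 15.3 and 14.9 TPM in BMMs and 41.9, 40.2 and 45.3 TPM in osteoclasts. Its levels differed 2.95-fold without overlap (log2 fold change 1.50, SE 0.08, adjusted p = 1.1e-06 from limma). Cox15, the heme A synthase, followed with 1.12. Ferredoxin reductase Fdxr, from the list of further factors, supplies electrons for that step and had a log2 fold change of 1.60.
Copper is another metal of the enzyme. Of the 6 copper delivery genes, 5 were tested and 5 were higher, beside 45.3% of all genes tested. Cox17 hands copper to Sco1 and Cox11, and these 3 had log2 fold changes of 1.05, 1.24 and 1.09. Of the 1423 exonic bases of Cox11, 688 are shared with exons of Tom1l1 on the opposite strand. Tom1l1 averaged 0.937 TPM in BMMs and 4.52 TPM in osteoclasts. Coa6, a reductase of the copper site, had one of 1.00, and Cox19, a partner of Cox11, one of 0.45. Cox19 did not pass after median-ratio scaling (log2 fold change 0.25, adjusted p = 0.056).
Sco2 (ENSMUSG00000091780, chr15:89371637-89373846, minus strand), the other copper chaperone, was listed at 0 in 5 libraries and at 0.054 TPM in osteoclast replicate 1. Of its 1253 exonic bases, 1150 (91.8%) are shared with exons of Tymp on the same strand or Ncaph2 on the opposite strand, which leaves 103 bases of its own. Reads that fall in shared bases may be left out or given to the neighbours in the authors' counting, whose rules were not given in the sources used here. Its level is therefore uncertain. Tymp measured 7.34 TPM on average in BMMs and 12.8 TPM in osteoclasts, and Ncaph2 80.0 and 85.3 TPM.
Synthesis and early assembly of Cox1, the mitochondrially encoded core subunit, had 5 genes and 5 were higher, beside 45.3% of all genes tested. Lrpprc, which stabilizes mitochondrial mRNA, and Taco1, the translational activator of Cox1, had log2 fold changes of 1.22 and 1.20. Cox14 and Coa3, which bind newly made Cox1, were the most abundant members, at means of 175.8 and 104.1 TPM in BMMs and 332.9 and 148.4 TPM in osteoclasts (log2 fold changes 0.92 and 0.51). Surf1 (ENSMUSG00000015790, chr2:26913381-26916530, minus strand), needed to place heme in Cox1, changed the least of these 5. It was at 40.9, 39.8 and 42.3 TPM in BMMs and 47.4, 52.4 and 49.9 TPM in osteoclasts, without overlap, a log2 fold change of 0.28 (SE 0.06, adjusted p = 0.0040 from limma). Surf1 did not pass after median-ratio scaling (log2 fold change 0.07, adjusted p = 0.44).
The genes for the Cox2 module differed among themselves. Cox18 (ENSMUSG00000035505, chr5:90214724-90224001, minus strand), which moves the tail of Cox2 across the membrane, was at 4.32, 4.39 and 4.44 TPM in BMMs and 13.8, 12.9 and 13.2 TPM in osteoclasts. This is a 3.04-fold difference, slightly more than that of Cox10, with little spread in either group (log2 fold change 1.41, SE 0.07, adjusted p = 8.8e-07 from limma). Cox20 (ENSMUSG00000026500, chr1:178319130-178322693, plus strand), the chaperone of newly made Cox2, was the member tested whose groups overlapped. BMM libraries held 10.7, 9.55 and 8.89 TPM and osteoclast libraries 13.3, 17.1 and 9.49 TPM, so that osteoclast replicate 3 lay within the BMM range. Its log2 fold change was 0.38 with a 95% interval of -0.04 to 0.80 (adjusted p = 0.095 from limma), and 0.59 without osteoclast replicate 3 (adjusted p = 0.0049). Of its 883 exonic bases, 804 are shared with exons of Hnrnpu on the opposite strand, and its level is uncertain for the same reason as that of Sco2. Hnrnpu averaged 90.6 TPM in BMMs and 113.2 TPM in osteoclasts, with a log2 fold change of 0.32. Cox16, which works on the copper site of Cox2, had a log2 fold change of 0.42 and did not pass after median-ratio scaling (0.22, adjusted p = 0.089).
Coa5 (ENSMUSG00000026112, chr1:37417084-37430103, minus strand), a small factor of complex IV whose step is less well defined, had the smallest change of the 17. BMM libraries measured 81.4, 82.8 and 86.3 TPM and osteoclast libraries 102.5, 91.3 and 86.5 TPM. The lowest osteoclast library was barely above the highest BMM library. The log2 fold change was 0.16 with a 95% interval of -0.01 to 0.32 (adjusted p = 0.081 from limma). It passed without osteoclast replicate 3 (0.21, adjusted p = 0.020) and turned to -0.06 after median-ratio scaling. Coa7, another factor of this complex, had a log2 fold change of 0.73.

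For complex V, the ATP synthase, 3 of 3 factors were higher, beside 45.3% of all genes tested. The 3 factors lay 1.19 log2 units apart. Tmem70 (ENSMUSG00000025940, chr1:16665207-16678275, plus strand) promotes assembly of the ring of c subunits. It measured 31.5, 32.2 and 34.1 TPM in BMMs and 86.2, 98.6 and 77.3 TPM in osteoclasts, a 2.68-fold difference (log2 fold change 1.39, SE 0.09, adjusted p = 3.1e-06 from limma). Atpaf2, which holds the α subunit of the F1 sector, had a log2 fold change of 0.82. Atpaf1 (ENSMUSG00000028710, chr4:115784812-115818828, plus strand), which holds the β subunit, was at 12.4, 12.8 and 12.7 TPM in BMMs and 15.1, 13.7 and 15.4 TPM in osteoclasts. Its osteoclast levels were all above its BMM levels by a narrow margin, a log2 fold change of 0.20 (SE 0.07, adjusted p = 0.034 from limma), close to the all-gene median of 0.19. The call was lost when any library other than osteoclast replicate 2 was left out (adjusted p from 0.058 to 0.13) and after median-ratio scaling, which left a log2 fold change of 0.0025 (adjusted p = 0.98).

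The subunits that these factors assemble were counted beside them. Of 76 nuclear structural subunits listed, 75 were found and tested, and 75 were higher, beside 45.3% of all genes tested. Log2 fold changes of these subunits ran from 0.50 (Ndufa7, complex I) to 2.13 (Cyc1, complex III). In each of the 5 complexes the median log2 fold change of the factors was below that of the subunits. The medians were 0.83 and 1.04 in complex I, 0.55 and 1.33 in complex II, 0.95 and 1.53 in complex III, 1.00 and 1.15 in complex IV, and 0.82 and 1.11 in complex V. Of the 44 factors, 20 changed less than the subunit of their complex that changed least, and 18 did so with a pseudocount of 0.1 TPM, where Lyrm7 and Nubpl no longer did. Another 4 changed more than the subunit that changed most, namely Ndufaf4 and Ecsit (beside 1.61 for Ndufv1) and Cox10 and Cox18 (beside 1.41 for Ndufa4). For Cox18 that margin was far smaller than its SE, and with 0.1 TPM Sdhaf1 joined these 4. The difference between the 2 kinds of genes was not tested. Factors were less abundant than subunits, with a median BMM level of 11.7 and 84.0 TPM in complex I, and the pseudocount shrinks the changes of low genes more. With a pseudocount of 0.1 TPM the median was 0.91 for the factors and 1.16 for the subunits over the 5 complexes, beside 0.87 and 1.15 with 1 TPM.

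**Figure D3:**
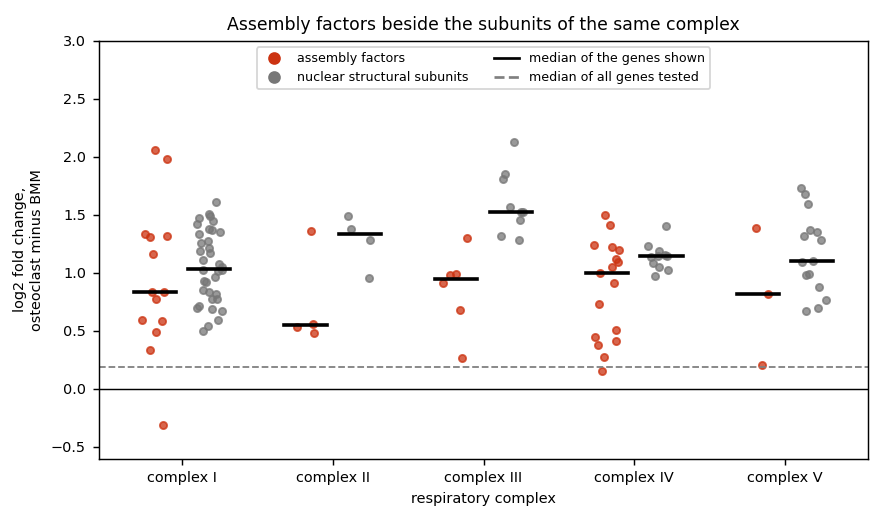
Log2 fold change of each assembly factor (red) and each nuclear structural subunit (grey) of complexes I to V, with the median of each set as a black bar and the all-gene median of 0.19 as a dashed line. Factor medians, from 0.55 to 1.00, lie below the subunit medians, from 1.04 to 1.53, and the factors span a wider range than the subunits in each complex.

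Factors and the subunit each one acts on could be set side by side. For Ndufaf5 and its target Ndufs7 the log2 fold changes were 1.32 and 1.38. Sdhaf1 and Sdhb stood at 1.36 and 1.49, and Sdhaf2 and Sdha at 0.48 and 1.38. The Rieske protein gene Uqcrfs1 had a log2 fold change of 1.80 and its factors Bcs1l and Ttc19 had values of 0.91 and 0.99. For Lyrm7, which passed the minimum level only through its osteoclast libraries, the order against Uqcrfs1 depended on the pseudocount, at 0.99 and 1.80 with 1 TPM and 1.90 and 1.81 with 0.1 TPM. Tmem70 at 1.39 lay between the c subunit genes Atp5g2 (0.67) and Atp5g1 (1.68) or Atp5g3 (1.73), while Atpaf1 at 0.20 and the β subunit gene Atp5b at 1.59 were the pair farthest apart of those named here. Of the mitochondrially encoded targets, chosen outside the naming rule, mt-Co1, the Cox1 gene, measured 5355, 5633 and 5699 TPM in BMMs and 10947, 11118 and 7880 TPM in osteoclasts (log2 fold change 0.83, SE 0.12). For mt-Cytb, the cytochrome b gene, these were 1694, 1778 and 1748 TPM and 3778, 3731 and 2985 TPM (log2 fold change 1.00, SE 0.09).

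Summed over each complex, factor RNA also increased by a smaller factor than subunit RNA, and no test was run on these sums. The 45 factors together took 0.109% to 0.111% of all TPM in BMM libraries and 0.186% to 0.203% in osteoclast libraries, a 1.75-fold difference of the means. For every 100 TPM of complex III subunits, there were 10.6, 10.4 and 10.6 TPM of factors in BMM replicates 1 to 3 and 5.10, 5.39 and 5.01 TPM in osteoclast replicates 1 to 3. This was the largest drop of the 5 complexes, from 10.5 ± 0.0898 to 5.17 ± 0.197 TPM (n = 3 each, SD). The osteoclast mean of the subunit sum of complex III was 3.11 times the BMM mean and that of its factor sum 1.53 times, and the latter consists largely of Uqcc2 and Uqcc3. In complex II BMMs had ratios of 7.74, 7.61 and 8.22 TPM, and osteoclasts 4.95, 5.41 and 4.29 TPM. In complex IV the BMM libraries averaged 14.2 ± 0.128 TPM and the osteoclast libraries 11.2 ± 0.324 TPM (n = 3 each, SD), and in complex I the averages were 5.64 ± 0.113 and 5.20 ± 0.287 TPM (n = 3 each, SD). In complex V they were 2.36 ± 0.112 and 2.08 ± 0.157 TPM (n = 3 each, SD). The osteoclast ratios were below the BMM ratios without overlap in each of the 5 complexes, although in complexes I and V the closest libraries of the groups differed by less than 0.1 TPM. The ratio is formed within a library, so a common scaling of its genes leaves it as it is.

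**Figure D4:**
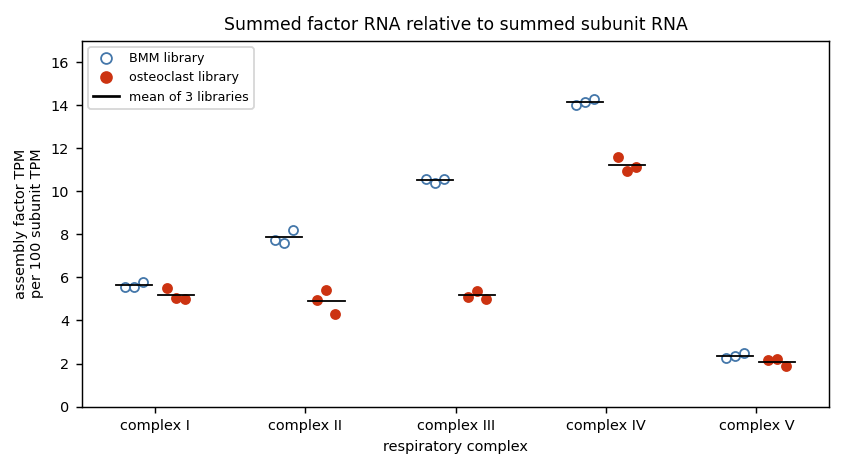
Summed TPM of the assembly factors per 100 TPM of the nuclear structural subunits of the same complex, for each BMM library (open blue) and each osteoclast library (filled red), with the mean of 3 libraries as a black bar and the vertical axis starting at 0. The osteoclast points lie below the BMM points in each complex, most clearly in complexes II (7.86 to 4.89 on average) and III (10.5 to 5.17), and nearly meet them in complexes I and V.

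A further 24 factors of the same process were listed for comparison. Of these, 23 were found and 21 were tested, and 16 were higher, 1 was lower and 4 did not pass, beside 45.3% higher and 23.5% lower among all genes tested. Their median log2 fold change was 0.58, and that of all genes tested was 0.19. The largest rise was that of Fmc1, a stabilizer of the F1 assembly factor Atpaf2, at 11.9, 12.9 and 8.68 TPM in BMMs and 33.9, 41.0 and 38.2 TPM in osteoclasts (log2 fold change 1.68, SE 0.14, adjusted p = 1.3e-05 from limma). Dmac1, a factor of the distal membrane arm of complex I, was the gene that fell. It measured 138.7, 143.3 and 133.2 TPM in BMMs and 81.3, 107.6 and 80.3 TPM in osteoclasts, a fall of clear size without overlap (log2 fold change -0.63, SE 0.11, adjusted p = 0.0011 from limma). Dmac2 and Tmem186, other membrane arm factors on that list, were higher, with log2 fold changes of 0.28 and 0.76.

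Replicates differed more in osteoclasts than in BMMs. Over the 44 factors tested the median coefficient of variation was 3.62% in BMMs and 7.53% in osteoclasts, and the highest in osteoclasts was the 28.6% of Cox20. Osteoclast replicate 2 was the highest of its group for 29 of the 44 (65.9%, beside 30.0% of all genes tested), and osteoclast replicate 3 was the lowest for 24 (54.5%, beside 37.7%). The median deviation from the group mean was 0.08 on the log2 scale in osteoclast replicate 2 and -0.07 in replicate 3.

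Exons of 19 of the 45 members overlap those of another annotated gene, and in 5 (Sco2, Cox20, Sdhaf1, Ndufaf2 and Cox16) more than 50% of the exonic bases do. Reads of pairs on opposite strands may not be told apart, since the strand setting of the counting was not given in the sources used here. Sco2 and Tymp, and Cox16 and Gm20498, lie on the same strand, where no strand setting separates their reads. For Sdhaf1 the overlapping gene, E130208F15Rik, was at 0 in each library. For Cox16 the overlapping Gm20498 averaged 0.786 TPM in BMMs and 1.15 TPM in osteoclasts. B230220B15Rik, which overlaps Ndufaf2, had no values in the expression table. Smaller overlaps included those of Cox11 (48.3% of exonic bases), Ecsit (24.0%) and Coa6 (14.1%). Over Cox11 and Coa6, Tom1l1 and Tarbp1 had log2 fold changes of 1.51 and 1.36. Gm16845, over Ecsit, did not pass the test. How far these overlaps enter the values of the members was not tested. Many members also start back to back with another gene. For 14 of the 45, a protein-coding gene starts on the opposite strand within 1000 bases, and 12 of these neighbours were tested. Of the 12, 6 were higher, 1 was lower and 5 did not pass, and the share called higher was near the 45.3% of all genes tested. Their median log2 fold change was 0.35. The start of Cox15 lies 4 bases from that of Cutc, a gene of copper homeostasis, which had a log2 fold change of 0.50 beside 1.12 for Cox15. Sco1 and its neighbour Adprm, 76 bases apart, had values of 1.24 and 0.19, and Adprm did not pass the test (adjusted p = 0.15 from limma). Other pairs moved more alike, with 0.83 for Ndufaf2 and 0.64 for Ercc8, 1.32 for Ndufaf5 and 0.94 for Esf1, and 0.99 for Ttc19 and 1.29 for Zswim7. Ercc8 averaged 1.37 TPM in BMMs and 2.69 TPM in osteoclasts, a level at which the pseudocount shrinks changes. Its means differed 1.96-fold, beside 1.84-fold for Ndufaf2. In the pair of Ndufaf7 and Cebpz, 70 bases apart, the neighbour changed more, at 0.92 beside 0.33. Cox11 rose by 1.09 while Stxbp4, 89 bases away, fell by 0.31 on the log2 scale (adjusted p = 0.042 from limma). Stxbp4 lay at the minimum level tested, with means of 1.21 TPM in BMMs and 0.793 TPM in osteoclasts.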

How the data were processed

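The RNA-Seq libraries were 3 of BMMs (day 0) and 3 of osteoclasts (day 4). As the paper's methods and the submitters' processing notes describe, the authors converted reads with bcl2fastq 2.17, trimmed them with Trimmomatic 0.36, aligned them with STAR 2.5.2b to mm10 (GRCm38), counted hits per gene and deposited TPM values, in which every library has the same total. The counting tool, strand setting and gene lengths were not given in the sources used here. TPM keeps no depth, so a count test could not be run and limma 3.58.1 (R 4.3.3) was used on log2(TPM + 1) in place of the authors' test on counts. Genes averaging 1 TPM or more were fitted together with the intensity trend, two-sided, with Benjamini-Hochberg adjustment over all 12325 genes and a threshold of 0.05. The fit was tested on simulated data. The members and lists were chosen with earlier results of these data known. Any member could be named. Library values are given for the largest and smallest changes of each complex and for members that fell, did not pass, overlapped or were untested. Other genes are named as targets, list extremes, neighbours or cell markers. Fdxr, Dmac2, Tmem186, Tmem126a, mt-Co1 and mt-Cytb were named outside this rule. Of the table's identifiers, 48970 matched GENCODE vM21, used for coordinates and exons. Promoters are from RefSeq (GRCm38.p6). The labels do not say whether replicate numbers pair the libraries. Alternatives were a replicate block, other pseudocounts, filters and scalings, no trend, leaving out each library, and a minimum log2 fold change of 1. Python 3.11.15, pandas 2.3.3, NumPy 2.4.6, SciPy 1.17.1 and matplotlib 3.10.9 were used.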

Additional observations from a re-analysis of the deposited data

How the results depend on the processing

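Of 657 values of the 44 factors under the alternatives, 623 kept their direction and their side of the threshold, 28 lost the call, 3 gained it and 3 changed sign, and 35 factors had no changed call. The number of factors called higher was 40 to 42 when 1 library was left out, 41 with pseudocounts of 0.1 and 0.5 TPM, with no filter, without the trend and with the replicate block, 38 of 41 with a filter at 5 TPM, 35 after median-ratio scaling and quantile normalization, and 37 after rescaling without mitochondrially encoded and the 20 most abundant genes. With a log2 fold change of at least 1 also required, 18 factors were higher and 0 were lower, as were 1673 and 941 of all genes. Without that limit, 5585 genes were higher and 2901 lower (4134 and 4140 after median-ratio scaling, 4090 and 4259 after quantile normalization). With a filter at 5 TPM 4585 of 9400 genes were higher, and after the rescaling 4367 of 12278. When 1 library was left out, 4998 to 5818 of 12325 genes were higher. The number of factors called lower by limma was 0 to 1 when 1 library was left out and 0 with no filter, where Tmem126b had an unadjusted p under 0.05 but an adjusted p of 0.064 over 24150 genes. Coa5 turned to -0.055 after median-ratio scaling, to -0.047 after quantile normalization and to -0.014 after rescaling, and it was not called under these or without them. The number of structural subunits called higher was 75 under each alternative except the limit on log2 fold change, with 52. Same-numbered libraries did not deviate together (r from -0.0676 to -0.0028, beside -0.0653 to 0.105 for libraries with different numbers). The labels give no animal, so whether same-numbered libraries share an animal cannot be told. The replicate block gave 41 factors higher and 1 lower, with Atpaf1 lost (adjusted p = 0.074) and Cox20 gained (adjusted p = 0.043). The causes of these changes were not tested.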
